A study of Mus musculus with 8 samples.

Results

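The genes examined were Trp53, which encodes the transcription factor p53, and 9 genes that p53 is known to switch on directly: Cdkn1a, Mdm2, Bax, Bbc3, Ccng1, Phlda3, Eda2r, Trp53inp1 and Zmat3. They were found by gene symbol among the 27179 genes of the deposited table, and all 10 were present and passed the filter on low expression that left 13262 genes. The rule that picked their rows used their names and none of their values, but the genes were chosen with earlier results of these data known. RNA was sequenced from 8 subcutaneous tumors of the mouse C26 colon carcinoma line, implanted into adult male CD2F1 mice and taken at cachexia, which is a body weight loss of more than 15%. In 4 tumors the cells were cxC26 scr, the cachectic form of the line carrying a scrambled guide RNA. In the other 4 they were cxC26 IL6KOs1, a subclone in which CRISPR/Cas9 had disrupted the gene for the cytokine IL-6. The guides were delivered by a lentiviral vector under puromycin selection. All knockout tumors came from 1 clone, so the effect of losing IL-6 and the traits of that clone cannot be told apart. In other experiments with CD2F1 mice taken at cachexia, the study describes a larger inoculum and a later endpoint for cxC26 IL6KOs1 than for the control line. Neither is given for the sequenced tumors in the sources used here, and where they differed they cannot be told apart from the genotype.

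In an undisturbed cell p53 is made and destroyed continually, because the ubiquitin ligase Mdm2 marks it for degradation. DNA damage, oncogene activity and other stresses release it from Mdm2. It then binds paired half-sites in DNA and raises transcription of genes that stop the cell cycle, repair DNA, trigger apoptosis or feed back on p53 itself. Control of p53 acts mainly on the protein, so the level of Trp53 mRNA is a poor guide to its activity, and the levels of its targets are often read instead. Each target also has other inputs. Protein was not measured in these tumors.

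The promoters were searched for the letters that p53 binds. The region before Cdkn1a is printed here because that gene differed between the groups without overlap and held a pair of half-sites. Sequences were taken from RefSeq (GRCm38.p6), in windows of 250 bases before to 50 bases after each start, and 8 of the 10 genes had an entry. Trp53inp1 and Zmat3 had none. Both strands were searched for the p53 half-site consensus of 10 bases, at every position and with no mismatch. A pair of half-sites no more than 13 bases apart lay in 1 of the 2 windows of Cdkn1a, that of the start at 29090979. The half-sites run from -73 to -42 relative to that start, with 12 bases between them. Such a pair was found in 24 of 32851 promoter windows (0.0731%), and no other of the 8 genes had one. The 10 bases right after the second Cdkn1a half-site, tgacatgttc, miss the consensus at their first base only and were not counted. The other Cdkn1a window held no half-site. The 150 bases before the start at 29090979, chr17:29090829-29090978 on the plus strand, read as follows, with both half-sites in capitals.
Cdkn1a: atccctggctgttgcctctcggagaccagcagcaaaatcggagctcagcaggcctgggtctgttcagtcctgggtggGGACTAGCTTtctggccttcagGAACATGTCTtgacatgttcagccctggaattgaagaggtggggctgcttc

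At least 1 half-site was found in 5 of the 8 genes, Cdkn1a included, beside 2582 of 27025 genes in the whole promoter table (9.55%). The 40 bases around the half-site are printed for the other 4, which are Bax (chr7:45467075-45467114, minus strand), Mdm2 (chr10:117710920-117710959, minus strand), Ccng1 (chr11:40755447-40755486, minus strand) and Trp53 itself (chr11:69580269-69580308, plus strand), with the half-site in capitals.
Bax: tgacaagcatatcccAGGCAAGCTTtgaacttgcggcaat
Mdm2: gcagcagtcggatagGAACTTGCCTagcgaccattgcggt
Ccng1: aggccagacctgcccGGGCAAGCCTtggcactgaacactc
Trp53: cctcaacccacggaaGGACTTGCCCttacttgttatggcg
No half-site was found in the windows of Bbc3, Phlda3 or Eda2r. A match is a description of the letters and not a bound site, and these windows do not reach binding sites in introns or farther upstream. Of the genes shown, Cdkn1a fell in the knockout tumors, and Bax, Mdm2, Ccng1 and Trp53 did not pass the test. Eda2r, with no half-site in its window, also fell, and so did Zmat3, which had no window. A link between half-sites and fold changes was not tested.

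Expression was read as log2 CPM, the log2 of read counts scaled to the size of each library. Read totals over genes ran from 14158989 to 17048062, and those of the groups overlapped. For Il6, the targeted gene, cxC26 scr gave 356, 326, 376 and 438 reads, and cxC26 IL6KOs1 gave 64, 56, 86 and 59. Its level was thus 18.3% of the control level (log2 fold change -2.45, limma adjusted p = 2e-06), with no overlap between groups. Transcripts of host cells and of tumor cells were counted together, whether disrupted or not. Nothing in the labels states that replicates came from separate mice, so the p-values measure the spread between these samples.

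Some tumors stood apart. cxC26 scr replicate 1 held 59 reads of Krt5 and 28 of Krt14, both keratins of skin, where the other 7 tumors held 0 to 3, and it also held 27 reads of the p53 target Perp, where the others held 0 to 3. Leukocyte genes were higher in the knockout tumors for 5 of 5 listed (summed level from 7.25 to 7.50 log2 CPM in cxC26 scr and from 8.02 to 9.07 in cxC26 IL6KOs1), macrophage genes for 4 of 5, with 1 lower (7.81 to 7.88 and 8.56 to 8.99), and T cell genes for 4 of the 4 tested (0.34 to 1.51 and 3.17 to 3.99). Fibroblast genes overlapped (11.84 to 12.43 and 11.63 to 12.20), with 1 of 5 higher and 1 of 5 lower. None of 4 endothelial, 4 skeletal muscle or 3 adipocyte genes passed the test, and of the few genes tested for B cells, neutrophils and keratinocytes 1 neutrophil gene was higher. The summed level of the skeletal muscle genes varied widely between tumors (2.6 to 7.18 and 4.28 to 8.20 log2 CPM). All 4 muscle genes were highest in cxC26 IL6KOs1 replicate 4 and lowest in cxC26 scr replicate 4. As a colon carcinoma the tumors held 17390 to 22185 reads of Krt20, an intestinal keratin. They held only 0 to 14 reads of Epcam and 0 to 3 of Vil1, both listed here for colon epithelium. Of 9 colon epithelium genes listed and 4 tested, 2 were higher (Krt18, log2 fold change 3.20, and Cdh1, 1.46) and 1 was lower (Cdx2, -5.27), with a summed level from 10.08 to 10.33 log2 CPM in cxC26 scr and from 10.37 to 10.50 in cxC26 IL6KOs1. In bulk RNA, fewer cells of a type and less RNA per cell cannot be told apart. The parts of the leukocyte difference and of the muscle spread in the results were not tested.

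Of the 10 genes, 3 fell in the cxC26 IL6KOs1 tumors (Eda2r, Cdkn1a and Zmat3), none rose and 7 did not pass the test at an adjusted p of 0.05. Among all genes tested, 2748 (20.7%) were lower and 2529 (19.1%) were higher. The values of the groups did not overlap for 2 of the 10 genes, Eda2r and Cdkn1a, both lower, while 19.3% of all genes were lower without overlap and 17.8% were higher without overlap. Their median log2 fold change was -0.23, beside -0.003 for all genes tested, and none of the 3 falls reached 2-fold.

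**Figure D1:**
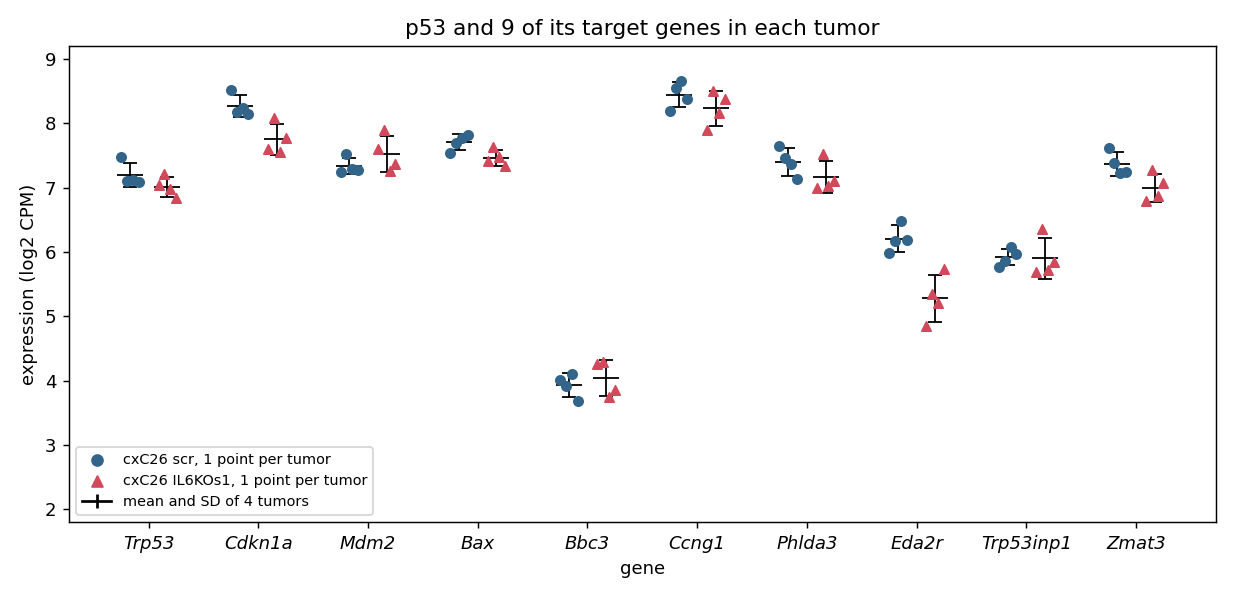
Expression of p53 and 9 target genes in each tumor, in log2 CPM on the vertical axis, with circles for the 4 cxC26 scr tumors, triangles for the 4 cxC26 IL6KOs1 tumors, and bars for mean and SD. Only for Cdkn1a and Eda2r do all 4 triangles lie below all 4 circles.

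Trp53 itself (chromosome 11, 69580348 to 69591873, GRCm38) had 7.47, 7.09, 7.12 and 7.08 log2 CPM in the cxC26 scr tumors and 7.03, 7.22, 6.97 and 6.84 in the cxC26 IL6KOs1 tumors. The groups overlapped, since knockout replicate 2 lay above 3 of the control tumors. The log2 fold change was -0.18 (95% interval -0.42 to 0.06, adjusted p = 0.225, limma). No change in Trp53 mRNA was therefore detectable, and the interval leaves room for a fall of up to 0.42. Without cxC26 scr replicate 1, the highest tumor, the log2 fold change was -0.08. The paralogs of p53 were close to silent: Trp63 had 0 reads in every cxC26 scr tumor and at most 1 in the others, and Trp73 had at most 2 reads in any tumor.

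Cdkn1a encodes p21, the inhibitor of cyclin-dependent kinases through which p53 halts the cell cycle, and it is the best known p53 target. It lies on chromosome 17 from 29090979 to 29100722. The cxC26 scr tumors had 8.51, 8.17, 8.23 and 8.15 log2 CPM and the cxC26 IL6KOs1 tumors 7.59, 8.08, 7.55 and 7.77. Every knockout tumor was below every control tumor, although the gap between the nearest tumors was small. Cdkn1a thus fell to 69.8% of the control level (log2 fold change -0.52, SE 0.12, adjusted p = 0.00665, limma). The two-sided exact permutation p was 0.0286, which is the smallest that 4 against 4 tumors allow. Without cxC26 scr replicate 1, which had the highest value, the log2 fold change was -0.44 (adjusted p = 0.0175). Part of its exons (273 of 3553 bases) is shared with AC167363.2 on the opposite strand, and the strand setting of the counting is not given in the sources used here.

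Eda2r encodes a receptor of the tumor necrosis factor receptor family that binds an isoform of ectodysplasin, and it is on the X chromosome (97333837 to 97377234). Its read counts were 1050, 1169, 1274 and 1125 in the cxC26 scr tumors and 468, 562, 579 and 771 in the cxC26 IL6KOs1 tumors. These correspond to 5.98, 6.18, 6.48 and 6.19 log2 CPM against 4.85, 5.34, 5.20 and 5.73. The groups did not overlap, and knockout replicate 4 was nearest to the controls. Eda2r fell to 52.7% of the control level (log2 fold change -0.93, SE 0.17, adjusted p = 0.00125, limma; exact permutation p = 0.0286), the largest difference among the 10 genes. Without cxC26 scr replicate 1 its log2 fold change was -1.0 (adjusted p = 0.00206). Its ligand gene Eda had 0 to 7 reads in any tumor and the related receptor gene Edar had 0 reads in all of them. Of the 5 genes of the EDA pathway listed, 2 were tested and neither passed.

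Zmat3 encodes a zinc finger protein that binds RNA (chromosome 3, 32334792 to 32365665). It had 7.62, 7.37, 7.23 and 7.24 log2 CPM in cxC26 scr and 6.79, 7.27, 6.87 and 7.07 in cxC26 IL6KOs1. Knockout replicate 2 lay above 2 control tumors, so the groups overlapped. Zmat3 was at 77.5% of the control level (log2 fold change -0.37, SE 0.12, adjusted p = 0.0309, limma; exact permutation p = 0.0857). This call depended on single tumors: the adjusted p was 0.0751 without cxC26 scr replicate 1, 0.0636 without cxC26 scr replicate 2, 0.0737 without cxC26 IL6KOs1 replicate 1 and 0.0869 without cxC26 IL6KOs1 replicate 3. It was also lost when genes of low expression were kept (0.0889).

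The feedback genes did not pass the test. Mdm2, the ligase that p53 induces and that degrades p53, lies on chromosome 10 (117688875 to 117710758). Its values were 7.25, 7.53, 7.29 and 7.28 log2 CPM in cxC26 scr and 7.59, 7.89, 7.26 and 7.36 in cxC26 IL6KOs1, with 2 knockout tumors above all controls and 2 among them. The log2 fold change was 0.19 (95% interval -0.09 to 0.47, adjusted p = 0.267, limma). It was 0.07 without cxC26 IL6KOs1 replicate 2 and 0.04 with the median of the other genes in its 10 Mb bin removed. Ccng1 encodes cyclin G1, which recruits a phosphatase to Mdm2 (chromosome 11, 40748552 to 40755309). Its values were 8.20, 8.54, 8.66 and 8.38 against 7.89, 8.50, 8.16 and 8.37 log2 CPM, a log2 fold change of -0.21 (95% interval -0.52 to 0.09, adjusted p = 0.243, limma).

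The genes that promote apoptosis were near the threshold or far from it. Bax, a pore-forming member of the BCL-2 family (chromosome 7, 45461695 to 45466903), had 7.54, 7.69, 7.77 and 7.82 log2 CPM in cxC26 scr and 7.41, 7.63, 7.48 and 7.33 in cxC26 IL6KOs1. The overlap came from cxC26 scr replicate 1 and cxC26 IL6KOs1 replicate 2. The log2 fold change of Bax was -0.24 (95% interval -0.44 to -0.04), with a limma adjusted p of 0.0551 over all genes. Bax passed the test without cxC26 scr replicate 1 (adjusted p = 0.0217) and without cxC26 IL6KOs1 replicate 2 (0.0275). Its exons overlap those of Gm45808 on the same strand over 192 of 1576 bases. Bbc3, which encodes the BH3-only protein PUMA (chromosome 7, 16308398 to 16318334), had 4.01, 3.92, 4.11 and 3.68 against 4.26, 4.29, 3.75 and 3.85 log2 CPM. Its log2 fold change was 0.11 (95% interval -0.23 to 0.45, adjusted p = 0.616, limma), and the groups were interleaved.

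Phlda3 encodes a small protein that competes with the kinase Akt for membrane lipids (chromosome 1, 135766085 to 135769134). The cxC26 scr tumors had 7.65, 7.46, 7.37 and 7.13 log2 CPM and the cxC26 IL6KOs1 tumors 6.99, 7.52, 7.02 and 7.10. Knockout replicate 2 lay among the controls and the other 3 lay below them. The log2 fold change was -0.24 (95% interval -0.54 to 0.05, adjusted p = 0.177, limma), and without that tumor it was -0.36 (adjusted p = 0.0306). Trp53inp1, a nuclear stress protein (chromosome 4, 11156441 to 11174379), had 5.77, 5.87, 6.07 and 5.97 against 5.69, 6.36, 5.71 and 5.84 log2 CPM. Its log2 fold change was -0.02 (95% interval -0.33 to 0.29, adjusted p = 0.920, limma), the smallest of the 10.

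Cancer lines differ in the copy number and activity of chromosome stretches, so each gene was set beside the other tested genes of its own 10 Mb bin. The bin median was -0.31 for Bax and -0.35 for Phlda3, each below the log2 fold change of the gene itself, and -0.16 for Trp53. For the 3 genes that fell, the bin medians were 0.06 (Eda2r), -0.10 (Cdkn1a) and 0.20 (Zmat3). Their own fold changes lay below these medians, and the spread of the neighbours was not examined. With the bin median removed from every gene, Eda2r (-0.99, adjusted p = 0.00109), Zmat3 (-0.56, 0.00445) and Cdkn1a (-0.41, 0.0256) still passed the limma test as lower. Bbc3, whose bin had a median of -0.35, then passed as higher (0.46, adjusted p = 0.0415). DNA copy number was not measured.

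**Figure D2:**
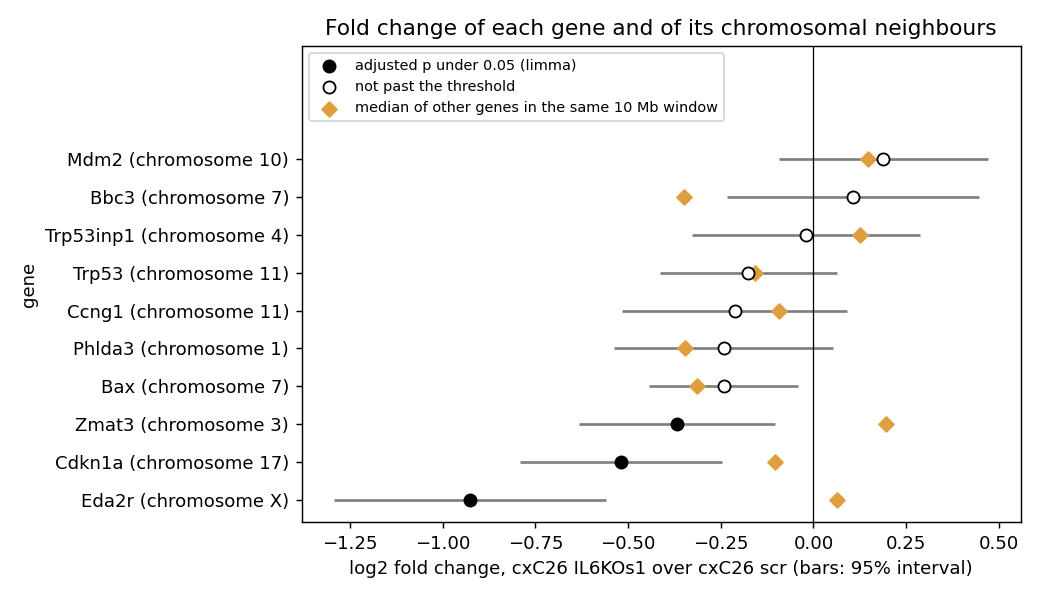
Log2 fold change of each gene, cxC26 IL6KOs1 over cxC26 scr, on the horizontal axis with its 95% interval, filled where the limma adjusted p is under 0.05, and as diamonds the median of the other tested genes in the same 10 Mb bin. The diamonds of Eda2r, Cdkn1a and Zmat3 (0.06, -0.10 and 0.20) lie outside the interval of their gene, as does that of Bbc3 (-0.35).

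Per kilobase of exon, counted over all annotated exons of a gene, the levels fell into steps. In cxC26 scr the highest 4 were Bax (7.05 log2 CPM per kilobase), Phlda3 (6.76), Ccng1 (6.63) and Cdkn1a (6.44), and each overlapped the next in its range over tumors. Trp53 (5.18) and Mdm2 (4.99) came next and overlapped each other but neither the genes above nor those below. Zmat3 (3.85) overlapped Eda2r (3.65), and Trp53inp1 (3.22) and Bbc3 (2.84) each stood apart from their neighbours. In cxC26 IL6KOs1 the order was alike except that Mdm2 (5.18) was above Trp53 (5.0) and Eda2r (2.72) was last. The ranges of the reordered genes overlapped there. Mdm2 ran from 4.91 to 5.54 and Trp53 from 4.83 to 5.20, and Eda2r ran from 2.29 to 3.18 and Bbc3 from 2.66 to 3.20. Bbc3, at 3.68 to 4.29 log2 CPM, rested on 197 to 311 reads per tumor, the fewest of the 10.

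In 1 knockout tumor most of the genes were high together. cxC26 IL6KOs1 replicate 2 had the highest value of its group for 9 of the 10 genes, all but Eda2r, whereas it was the highest of its group for 28.6% of all genes tested. Its median deviation from the group mean was 0.27 over the 10 genes, 0.18 over the 35 other p53 targets tested and 0 over all genes. It was highest for 22 of those 35 as well. The same tumor was also highest for 12 of the 20 mitotic genes, listed below, that p53 lowers through p21. With plain library sizes it was highest for 8 of the 10 genes, when the share of all genes was 20.1%, and with quantile normalization for 9 (29.6%). Its effective library size was 96.2% of its read total, the lowest of the 8 tumors, and the part of that in the pattern was not tested beyond these scalings.

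**Figure D3:**
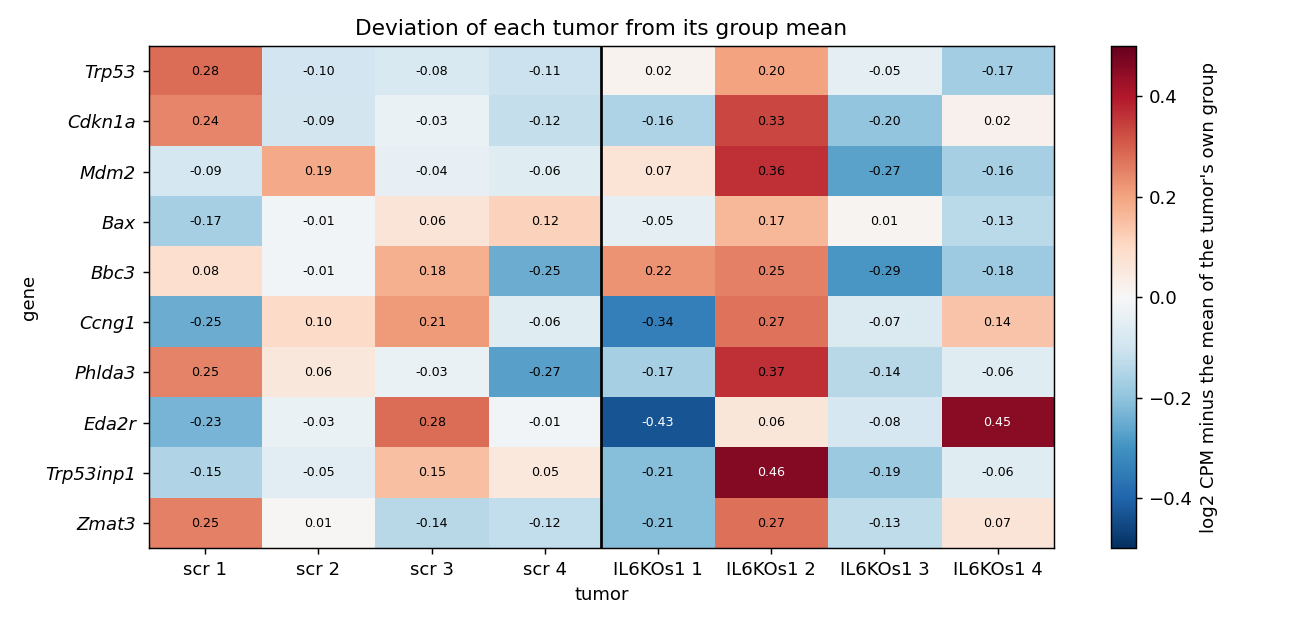
Deviation of each tumor (columns) from the mean of its own group for each gene (rows), in log2 CPM, with red above and blue below the group mean. The column of cxC26 IL6KOs1 replicate 2 is above its group mean for every gene, from 0.06 for Eda2r to 0.46 for Trp53inp1.

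Over the 8 tumors, deviations from the group means had a median Pearson r of 0.397 across the 45 pairs of the 10 genes, and 38 pairs were above 0, while the median over all pairs of tested genes was 0. Without cxC26 IL6KOs1 replicate 2 the median was 0.02. The closest pairs held without that tumor: Cdkn1a and Zmat3 had an r of 0.931 (0.895 without it), Cdkn1a and Phlda3 0.911 (0.827), Phlda3 and Zmat3 0.90 (0.839), and Ccng1 and Eda2r 0.823 (0.903). Values of 1 tumor share its library and scaling, and these are descriptions without a test. Over the same 8 tumors the genes most like Trp53 were Ppp2r1a (r = 0.996), Stx6 (0.986) and Tcf25 (0.983), and those most like Cdkn1a were Dynll2 (0.974), Mto1 (0.970) and Ppp2r5d (0.968).

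Among genes that regulate p53 or are related to it, of 26 listed and 23 tested, 9 were lower (39.1%) and 2 were higher (8.70%), with a median log2 fold change of -0.20, beside 20.7% lower and 19.1% higher among all genes. Mdm4, the partner of Mdm2 that masks the activation domain of p53, had 5.72, 5.90, 6.08 and 6.19 log2 CPM in cxC26 scr and 5.16, 4.88, 5.04 and 5.39 in cxC26 IL6KOs1. It fell to 55.3% of the control level (log2 fold change -0.85, SE 0.13, adjusted p = 0.000438, limma), in a bin with a median of -0.32. Ppm1d, a phosphatase that p53 induces and that reverses its activating phosphorylations, had 5.10, 4.93, 5.20 and 5.22 against 4.50, 4.52, 4.36 and 4.40 log2 CPM. It fell to 63.1% (log2 fold change -0.66, SE 0.10, adjusted p = 0.000435, limma). Both kept their call under every alternative run, the removal of bin medians included. Mdm4 and Ppm1d both restrain p53, and the groups did not overlap for either gene.

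Trp53bp2, whose protein binds p53 and favours its apoptotic targets, also fell (log2 fold change -0.68, adjusted p = 0.00144, limma), although its bin had a median of -0.37 and its adjusted p was 0.0804 with the bin median removed. Chek2, a checkpoint kinase that phosphorylates p53, rose by 0.43 on the log2 scale (adjusted p = 0.0289, limma), and Sirt1, a deacetylase of p53, by 0.26 (adjusted p = 0.0495). The call of Chek2 was lost without any 1 of cxC26 scr replicates 3 and 4 and cxC26 IL6KOs1 replicates 2, 3 and 4 (adjusted p up to 0.0860). That of Sirt1 was lost without any 1 tumor but cxC26 scr replicate 4 (up to 0.130), and Sirt1 was at -0.09 with its bin median of 0.35 removed. The count of regulators called lower was 5 without cxC26 scr replicate 3, when 2212 of all 13262 genes were lower. Cdkn2a, whose alternative product ARF inhibits Mdm2, had 0, 1, 6 and 3 reads in cxC26 scr and 12, 7, 4 and 4 in cxC26 IL6KOs1, too few to be tested.

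Other direct targets of p53 went both ways in equal number. Of 36 listed and 35 tested, 7 were higher (20%) and 7 were lower (20%), shares close to those of all genes, with a median log2 fold change of -0.03. Among the 13 of arrest and growth control, 4 rose and 3 fell. Gadd45a, which binds the clamp protein PCNA and slows division after damage, had 177, 228, 131 and 149 reads in cxC26 scr and 383, 562, 453 and 208 in cxC26 IL6KOs1, a log2 fold change of 1.22 (SE 0.26, adjusted p = 0.00368, limma). Ptp4a3, a tyrosine phosphatase, rose by 0.92 (adjusted p = 0.000143, limma). Btg2, an antiproliferative cofactor of mRNA decay, fell by 0.80 on the log2 scale (adjusted p = 0.000220, limma) and Psrc1, a microtubule protein, fell by 0.49 (adjusted p = 0.00585). No overlap between groups was a condition for naming these 4 genes. They passed the test under every alternative run.

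Among the other apoptotic targets, 1 rose and 3 fell of 9 tested. Aen, an exonuclease of dying cells, had 6.55, 6.59, 6.49 and 6.49 log2 CPM in cxC26 scr and 5.74, 5.80, 5.66 and 6.0 in cxC26 IL6KOs1, a log2 fold change of -0.73 (SE 0.09, adjusted p = 0.000101, limma). Pidd1, a death domain protein, fell by 0.70 on the log2 scale (adjusted p = 0.00658, limma). Its adjusted p was 0.0599 with its bin median of -0.25 removed. Of the 13 targets in DNA repair and metabolism, 2 rose and 1 fell. Rrm2b, a subunit of ribonucleotide reductase, rose by 0.49 (adjusted p = 0.0174, limma), and Ercc5, a nuclease of excision repair, fell by 0.58 (adjusted p = 0.00100), in a bin with a median of -0.42. With that median removed the adjusted p of Ercc5 was 0.268. Gdf15, a stress cytokine whose protein the study followed in plasma, had 168, 86, 80 and 57 reads against 110, 129, 117 and 87, a log2 fold change of 0.33 (SE 0.27, adjusted p = 0.352, limma), with overlapping groups. It was 0.60 (adjusted p = 0.0501) without cxC26 scr replicate 1, 0.21 without cxC26 IL6KOs1 replicate 2 and 0.12 without cxC26 scr replicate 4.

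**Figure D4:**
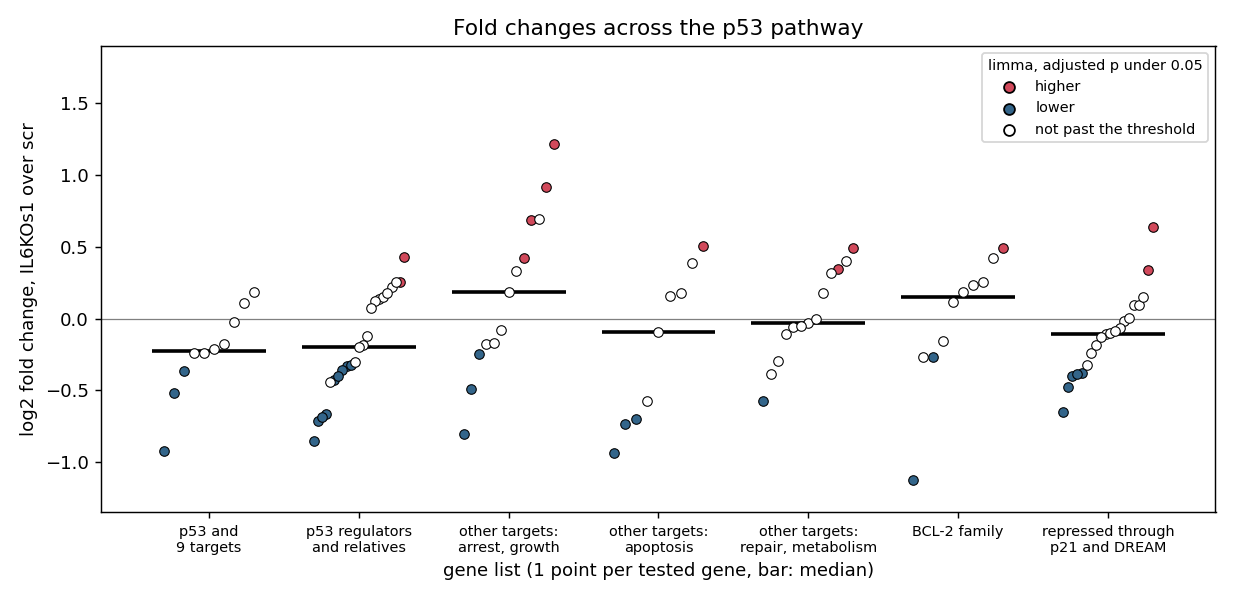
Log2 fold changes (vertical axis) of every tested gene in 7 lists around p53, cxC26 IL6KOs1 over cxC26 scr, colored where the limma adjusted p is under 0.05, with the median of each list as a bar. The medians lie between -0.23, for p53 and its 9 targets, and 0.18, for the other targets in arrest and growth control.

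The wider families of Bax and Cdkn1a were examined next. Of 10 BCL-2 family genes tested besides Bax and Bbc3, 2 fell (20%) and 1 rose (10%), beside 20.7% and 19.1% of all genes. Bcl2l11, which encodes the BH3-only protein BIM, had 5.63, 5.30, 5.54 and 5.61 log2 CPM in cxC26 scr and 4.68, 4.19, 4.40 and 4.31 in cxC26 IL6KOs1, a fall to 45.9% of the control level (log2 fold change -1.12, SE 0.12, adjusted p = 5.5e-05, limma). That is a larger fitted difference than those of Bax and Bbc3, without a test between the genes. Bcl2l11 was named because its fall was among the largest of its list. Bok, a pore-forming relative of Bax, fell by 0.27 on the log2 scale (adjusted p = 0.0198, limma) and Bad, another BH3-only gene, rose by 0.49 (adjusted p = 0.00187). The call of Bok was lost without cxC26 scr replicate 2 (0.0547), cxC26 scr replicate 3 (0.0608) or cxC26 IL6KOs1 replicate 1 (0.0537), and its log2 fold change was 0.17 with its bin median of -0.43 removed. The call of Bad was lost with its bin median of 0.33 removed (0.16, adjusted p = 0.234).

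Among the other inhibitors of cyclin-dependent kinases, 3 of 6 were tested. Cdkn2c, which encodes p18, rose by 0.35 on the log2 scale (adjusted p = 0.0365, limma) and the other two did not pass. Its call was lost without any 1 of cxC26 scr replicates 1, 3 and 4 and cxC26 IL6KOs1 replicates 2 and 3 (adjusted p up to 0.101). Through p21, p53 also lowers a set of mitotic genes that the DREAM complex represses. Of 20 listed and tested, 2 were higher (10%) and 5 were lower (25%), beside 19.1% and 20.7% of all genes, with a median log2 fold change of -0.10. Cdk1, the kinase that starts mitosis, rose by 0.34 (adjusted p = 0.0163, limma), in a bin with a median of 0.35, and was at -0.01 with that median removed. Mybl2 fell by 0.65 on the log2 scale (adjusted p = 0.00251, limma) and Bub1, a kinase of the spindle checkpoint, fell by 0.47 (adjusted p = 0.0110). With bin medians removed Mybl2 lost its call (adjusted p = 0.0590), Bub1 kept it (0.0332), and 1 of the 20 genes was called lower, beside 2001 of all 13262. The number of these mitotic genes called lower was 2 without cxC26 scr replicate 2 or cxC26 IL6KOs1 replicate 3 (2380 and 2264 over all genes). It was 3 without cxC26 scr replicate 3 or 4 or cxC26 IL6KOs1 replicate 1 (2212, 2193 and 2644 over all genes).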

How the data were processed

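RNA was measured by paired-end sequencing of 150 bases in 8 tumors. After trimming (Trimmomatic), alignment to mm10 (HISAT2) and counting (featureCounts), the authors normalized the reads with limma-voom and deposited log2 CPM for 27179 genes. The gene annotation is not given in the sources used here. The submitters' processing notes also name bcl2fastq 2.17. Each log2 value holds an offset of 0.5 reads and of 1 in the library size, and inverting it gave whole reads for 100% of values (within 0.01 reads). Read totals, which set the precision of low genes, had a median of 15384974.

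Samples were grouped by title. Genes reaching 1 CPM in 4 or more tumors (13262) were fitted with limma 3.58.1 in R 4.3.3 (lmFit, eBayes with a mean-variance trend, no covariates), with Benjamini-Hochberg adjustment over all of them and a threshold of 0.05. The method was tested on simulated data. Single genes were also compared by a two-sided exact permutation test. Bin medians used RefSeq positions (GRCm38.p6, matched for 13001 genes), with at least 10 other genes per bin. Gene coordinates also came from RefSeq, and exon lengths and exon overlaps from GENCODE M21 (GRCm38). No pair of tumors in a group differed by as little as sampling noise. Same-numbered tumors did not deviate together (0 of 4 correlations over 0.1).

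The genes and lists were chosen with earlier results of these data known. Named genes were the 10 members; Mdm4, Ppm1d, Cdkn2a, Trp63, Trp73, Gdf15 and Il6; in each list without cell markers, up to 2 increases and 2 decreases of largest size with no overlap, an adjusted p under 0.05 and a mean log2 CPM of 1 or more; and the 3 genes most correlated with Trp53 and with Cdkn1a. Krt5, Krt14, Perp, Krt20, Epcam, Vil1, Krt18, Cdh1, Cdx2, Eda and Edar were named after their values were seen. The alternatives were the filter, scaling, pseudocount, variance trend, voom weights, replicate block, bin medians and each tumor left out.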

Additional observations from a re-analysis of the deposited data

Results flagged for a closer look

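Of 70 groups of 4 tumors examined, 8 held a tumor far from the other 3, where about 3.5 would by chance at 1 in 20. Among p53 and its targets, cxC26 scr replicate 1 had 7.47 log2 CPM of Trp53 (others 7.08 to 7.12) and cxC26 scr replicate 2 had 7.53 of Mdm2 (others 7.25 to 7.29). Among the regulators, Trp73 was at -3.48 in cxC26 scr replicate 1, which is 1 read against 0, and Sirt1 was at 5.36 in cxC26 IL6KOs1 replicate 2 (others 5.13 to 5.16). Ptp4a3 was at 5.43 in cxC26 IL6KOs1 replicate 2 (others 5.24 to 5.25), Bok at 5.76 in cxC26 IL6KOs1 replicate 1 (others 5.89 to 5.91) and Bub1 at 5.48 in cxC26 IL6KOs1 replicate 3 (others 5.95 to 6.01). Il6 was at 2.46 in cxC26 IL6KOs1 replicate 3 (others 1.99 to 2.04), below the cxC26 scr tumors.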

How the results depend on the processing

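Over the 10 genes and 18 alternatives, 163 of the values kept their direction and their side of the threshold. Cdkn1a (log2 fold change -0.63 to -0.44 with tumors left out) and Eda2r (-1.08 to -0.78) kept their calls under all 18. Zmat3 (-0.46 to -0.28) also lost its call without the variance trend (adjusted p = 0.0640). With plain library sizes Bax passed (0.0498).

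Removing bin medians gave 1 gene called higher among the 10, and turned the sign of Bax (0.0729), Phlda3 (0.105), Sirt1 (-0.094), Bok (0.167) and Cdk1 (-0.0103). Trp53inp1 turned under quantile normalization (0.0247) and ran from -0.174 to 0.0498 with tumors left out, above 0 without cxC26 scr replicate 3 (0.0293), cxC26 IL6KOs1 replicate 1 (0.0498) or cxC26 IL6KOs1 replicate 3 (0.0411). The cause was not tested.

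Of the regulators, 1 was called higher with no filter, quantile normalization, plain library sizes, log2 of CPM plus 1 or no variance trend, and 0 with bin medians removed. BCL-2 family genes called higher were 2 under quantile normalization, and those called lower were 1 there and with bin medians removed. Inhibitors of cyclin-dependent kinases called higher were 0 with no filter, no variance trend or bin medians removed, and 2 with a required mean of 3 log2 CPM, quantile normalization or re-centring. Mitotic genes called higher were 1 with no filter and 0 with bin medians removed, and those called lower were 2 with no filter, 3 without the variance trend and 1 with bin medians removed. Of all 13262 genes, 2097 were higher and 2001 lower with bin medians removed, and 2354 and 2563 without the variance trend. Quantile normalization gave 2486 and 2779. With no filter the counts were 2112 and 2301 of 27179, and with a required mean of 3 log2 CPM 1882 and 2344 of 9998.

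With each tumor left out, the genes called lower among the 10 were 2 to 5, the 5 being without cxC26 IL6KOs1 replicate 2. Regulators were 0 to 2 higher and 5 to 9 lower, BCL-2 family genes 1 to 3 higher and 1 to 2 lower, kinase inhibitors 0 to 2 higher, and mitotic genes 1 to 2 higher and 2 to 5 lower. Over all 13262 genes, 2023 to 2540 were higher and 2193 to 2674 lower, with 2455 lower without cxC26 IL6KOs1 replicate 2.

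With the replicate number as a block, Cdkn1a (adjusted p = 0.0141), Eda2r (0.00130) and Zmat3 (0.0414) kept their calls. With that block 0 regulators were called higher, beside 2477 of all 13262 genes. The labels do not say what the replicate numbers stand for, and correlations of same-numbered tumors were -0.059 to 0.057. The check of cxC26 IL6KOs1 replicate 2 under other scalings, including re-centring by the median (9 of 10 genes), was added after seeing the data. Depth limits Trp63, Trp73 and Cdkn2a, at 0 to 12 reads.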
